A study of Rattus norvegicus with 18 samples.

Results

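Glycolysis and hypoxia-response genes were followed across 6 states of rat pXEN cells, from 38 genes listed by symbol: glucose transporters, glycolytic enzymes, lactate and pyruvate genes, and known targets and regulators of the hypoxia-inducible factors. The list was matched to the symbols of the count files. Of the 38 genes, 37 were among the 28695 genes of the files and 35 were among the 11503 genes with enough counts to be tested. Tpi1, the triose-phosphate isomerase gene, had 61 counts in all 18 libraries together, or 0 to 1.02 CPM (counts scaled for library size) in a library. Eno2, the neuronal enolase gene, had 0 counts in all of them, which allows at most 0.0229 CPM over the 18 libraries (3 counts, counting error only). How reads shared with other copies were counted is not given in the sources used here, so neither value bounds the expression of these genes. Pfkfb4 was not analysed here.

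The cells, labelled rat XENP, are extraembryonic endoderm precursor cells grown from blastocysts of the WKY rat strain and labelled female. The 18 libraries formed 6 groups of 3, and all came from cells of this same strain and type. Normal cells were kept in routine culture. Vacuolated cells were obtained in the same routine culture with CHIR99021, a GSK3 inhibitor, at 0.5 µM without a sort (CHIR-vacuolated), with CHIR99021 and a sort (sorted vacuolated), or with 14% BCS, which the labels do not spell out (BCS-vacuolated). Vesicles were cultured with CHIR99021 in the presence of serum (serum vesicles) or without it (serum-free vesicles). The protocol gives 3 µM CHIR99021 and 10 ng/ml murine LIF in N2B27 medium for vesicles, with no feeder cells, and does not say whether the serum vesicles had that dose, LIF or medium. Medium, dose and vesicle form therefore cannot be told apart in a vesicle comparison. The libraries came from passages 32 to 51 and were prepared independently. Whether they stand for separate cell lines is not stated, so each p-value rests on the spread between libraries within the groups of 3. That spread was estimated from all 18 libraries in 1 fit, so it also draws on groups outside a comparison.

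Strand-specific totals ran from 4.05 M to 12.1 M counts a library, and 37.6 to 61.1% of each fell on 2 genes with clone-style symbols. Mitochondrially encoded genes took 2.88 to 4.32% of the other counts in normal, CHIR-vacuolated and BCS-vacuolated cells and 6.76 to 9.43% in sorted vacuolated cells and vesicles. The label was checked against 12 extraembryonic endoderm markers, all of which averaged at least 1 CPM in every group. Their summed level was 5320 to 5740 CPM in normal, 5290 to 6310 in CHIR-vacuolated, 6820 to 8940 in BCS-vacuolated and 6700 to 8810 in sorted cells, and 3150 to 3610 in the vesicles grown with serum and 3900 to 4300 in those without. Against normal cells 0 of the 12 rose and 2 fell in CHIR-vacuolated, 6 and 0 in BCS-vacuolated and 4 and 2 in sorted cells. In serum vesicles 2 rose and 6 fell, and in serum-free vesicles 3 rose and 5 fell. The rising shares were 0, 50, 33.3, 16.7 and 25% in these 5 states, against 4.49, 11.2, 14.4, 31.7 and 30.2% of all tested genes. The falling shares were 16.7, 0, 16.7, 50 and 41.7%, against 3.13, 9.51, 11.5, 28.8 and 27.5%. Hnf4a and Foxa2, endoderm transcription factors, were among those that rose in both vesicle groups. In normal cells they stood at 7.87 to 9.21 and 21.9 to 27.3 CPM, and in vesicles at 34.1 to 75.9 and 41.5 to 52 CPM. Gata4, Gata6 and Thbd were lower in every vesicle library than in any normal one. In normal cells they stood at 376 to 462, 75.6 to 82.7 and 258 to 268 CPM. In vesicles they were at 138 to 234, 10.8 to 18.9 and 22.4 to 39.2 CPM. Pou5f1, a pluripotency factor also made by precursors of this lineage, stood at 102, 119 and 133 CPM in normal cells and at no more than 1.63 CPM in any vesicle library. Cdx2, a transcription factor of trophoblast and hindgut, had 0 counts in normal cells and 17.2 to 31.6 CPM in vesicles. Of the other 7 trophoblast genes looked at, Eomes was at 6.96 to 8.97 CPM in normal cells and at most 1.38 CPM in vesicles, Elf5 reached 2.31 CPM in serum-free vesicles, and Hand1 and Gcm1 had 0 counts in every group. The 12 fibroblast genes summed to 1.94 to 24.4 CPM in a library, led by Tagln (up to 13.9 CPM) and Col1a1 (up to 10.3 CPM), with Postn and Dcn at 0 counts throughout. Of the 3 tested, 1 rose in BCS-vacuolated cells and in serum vesicles (Tagln) and 2 fell in serum-free vesicles (Tagln and Col3a1). The part that these shifts play in the results below was not tested. In bulk RNA, fewer cells of a type and less RNA per cell cannot be told apart.

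Glycolysis turns glucose into pyruvate. Its upper steps trap glucose in the cell and split it, its lower steps yield ATP and pyruvate, and lactate dehydrogenase turns pyruvate into lactate where respiration is limited. When oxygen is short, prolyl hydroxylases of the Egln family no longer mark the α subunits encoded by Hif1a and Epas1 for destruction. The stabilised subunits then bind short DNA motifs near glycolytic, angiogenic, mitophagy and collagen-modifying genes. Descendants of the extraembryonic endoderm lineage secrete basement membrane rich in collagen and line the yolk sac.

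Promoter windows are shown for 4 genes that bear on a split described below: Ldha and P4ha1 fell in both kinds of vesicle, whereas Bnip3 and Ddit4 rose. The call of Ldha in serum-free vesicles was lost on leaving out some single libraries. Each window holds 300 bases around a RefSeq start site, most of them upstream, on build GRCr8, printed 5′ to 3′ on the strand of the gene. Capitals mark ACGTG or GCGTG, the core letters of the hypoxia response element, on either strand (as CACGT or CACGC on the other). The palindrome CACGTG holds ACGTG on both strands and counts as 2 places. The windows are Ldha at chr1:106507842-106508141 (plus strand), P4ha1 at chr20:27844796-27845095 (plus), Bnip3 at chr1:203154913-203155212 (minus) and Ddit4 at chr20:28436988-28437287 (minus).
Ldha: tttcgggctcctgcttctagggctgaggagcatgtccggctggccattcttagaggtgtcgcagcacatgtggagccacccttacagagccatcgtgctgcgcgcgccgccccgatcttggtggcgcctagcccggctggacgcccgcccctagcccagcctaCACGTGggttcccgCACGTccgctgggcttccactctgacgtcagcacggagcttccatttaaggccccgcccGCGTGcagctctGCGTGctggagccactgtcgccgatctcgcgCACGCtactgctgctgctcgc
P4ha1: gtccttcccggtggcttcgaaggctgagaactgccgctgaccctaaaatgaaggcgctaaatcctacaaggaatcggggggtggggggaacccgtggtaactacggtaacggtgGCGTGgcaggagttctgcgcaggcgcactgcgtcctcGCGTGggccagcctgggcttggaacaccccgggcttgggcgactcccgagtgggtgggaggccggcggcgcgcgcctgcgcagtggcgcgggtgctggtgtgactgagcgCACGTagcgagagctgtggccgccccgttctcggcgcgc
Bnip3: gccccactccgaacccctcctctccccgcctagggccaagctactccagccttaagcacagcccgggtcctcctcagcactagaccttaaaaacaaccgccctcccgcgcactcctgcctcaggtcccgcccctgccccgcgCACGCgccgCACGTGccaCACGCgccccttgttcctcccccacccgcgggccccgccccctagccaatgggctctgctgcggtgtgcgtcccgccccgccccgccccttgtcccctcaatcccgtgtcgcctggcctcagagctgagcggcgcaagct
Ddit4: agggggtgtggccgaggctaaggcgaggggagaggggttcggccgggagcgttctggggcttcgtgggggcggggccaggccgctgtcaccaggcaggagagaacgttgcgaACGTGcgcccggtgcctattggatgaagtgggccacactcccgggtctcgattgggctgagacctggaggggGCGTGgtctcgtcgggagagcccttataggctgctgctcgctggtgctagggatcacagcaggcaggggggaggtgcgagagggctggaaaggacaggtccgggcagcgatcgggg
The letters occurred at 6 places in the Ldha window, 3 in that of P4ha1, 4 in that of Bnip3 and 2 in that of Ddit4. These 4 genes do not stand for the list. The windows of Vegfa, Adm and Epas1, which rose in both kinds of vesicle, held none. Nor did that of Pkm, which fell in serum vesicles, while other genes of either direction held them. Whether the letters go with direction was not tested. RefSeq gave windows for 33 of the 38 genes, and Slc2a3, Pgk1, Ndrg1, Bnip3l and Ero1a were unmatched. Of their 38 windows, 25 (65.8%) held ACGTG or GCGTG, against 41.6% of all 33469 windows of this length. ACGTG alone stood in 55.3% of the windows of the listed genes and in 19.3% of all. The list was drawn up in part from known targets of these factors. The background holds every window and was not matched for expression or base content. The higher shares are therefore a description and not support. A match describes letters only, and the expression files hold no measure of factor binding.

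In all 3 vacuolated groups the listed genes that passed the test against normal cells were higher, and none were lower, in the fit of all 18 libraries. In CHIR-vacuolated cells 2 were lower with only the 2 groups fitted (21 higher) and also with no low-count filter (18 higher). Vesicles split the list into rises and falls. Of 8 tested upper enzymes, 5 rose (62.5%) and 1 fell (12.5%) in serum vesicles. In serum-free vesicles 5 of them rose and 2 fell (25%). Of 5 lower enzymes 0 rose and 3 fell (60%) with serum, and 1 rose (20%) and 0 fell without. Of all tested genes 31.7 and 30.2% rose and 28.8 and 27.5% fell in serum and serum-free vesicles. Falls of lower enzymes were thus called with serum only. Slc2a1 rose, and Ldha, P4ha1 and P4ha2 fell, in both. In serum-free vesicles the calls of Ldha and P4ha2 were lost on leaving out some single libraries. Of the 35 tested genes, 15 rose in CHIR-vacuolated cells (4.49% of all tested genes rose) and 0 fell (3.13% of all fell). In BCS-vacuolated cells 22 rose (11.2% of all) and 0 fell (9.51%). In sorted vacuolated cells 17 rose (14.4%) and 0 fell (11.5%). Their median log2 difference from normal was 0.56, 0.76 and 0.60 in these groups, against 0.00, 0.00 and 0.01 over all tested genes. In serum vesicles 15 rose (31.7% of all) and 11 fell (28.8%), with a median of 0.10 against 0.06. In serum-free vesicles 17 rose (30.2%) and 8 fell (27.5%), with a median of 0.45 against 0.03. In the vacuolated groups 42.9, 62.9 and 48.6% of the listed genes rose, well above the share of all genes. In vesicles the rising share was also higher (42.9 and 48.6%), while the falling share (31.4 and 22.9%) was near that of all genes. All 5 comparisons share the same 3 normal libraries, and the genes were chosen with earlier results of these data known.

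By group mean, BCS-vacuolated cells held the highest level of 14 of the 35 genes and normal cells of 0. Normal cells held the lowest level of 17 and serum vesicles of 14. The same ranking was not made over all tested genes, so these counts describe the listed genes and set them apart from no others. The 37 genes together took 1.17 to 1.27% of the counts outside the 2 dominating genes in normal cells and 1.58 to 1.75% in BCS-vacuolated cells. They took 1.43 to 1.51% in CHIR-vacuolated, 1.51 to 1.55% in sorted vacuolated, 0.976 to 1.17% in serum-vesicle and 1.25 to 1.30% in serum-free-vesicle libraries. Serum vesicles were thus the one state whose share reached below that of normal cells.

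When only library totals were used for scaling, in place of the trimmed mean of M-values (TMM), the median of all genes shifted by -0.26 in CHIR-vacuolated, -0.17 in BCS-vacuolated, -0.27 in sorted, -0.26 in serum-vesicle and -0.48 in serum-free-vesicle cells against normal. The listed genes then gave 7 higher and 2 lower, 17 and 0, 12 and 2, 13 and 12, and 13 and 11. Over all genes, the higher share of the calls went from 58.9 to 18.4%, 54.1 to 29.2%, 55.5 to 22.4%, 52.4 to 38.3% and 52.3 to 27.3%. The calls lost in this way were those of Egln1, Eno1, Epas1, Pfkfb3, Pfkm, Pgam1, Pkm and Vegfa in CHIR-vacuolated, Bnip3l, Eno1, Pgam1, Pkm and Slc16a1 in BCS-vacuolated, and Egln1, Gpi, Pfkl, Pfkm and Pkm in sorted cells. In serum vesicles they were those of Bnip3l and Pdk1, and in serum-free vesicles those of Bnip3l, Pdk1, Pfkfb3 and Pgam1. Differences below are on the TMM scale unless stated.

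**Figure D1:**
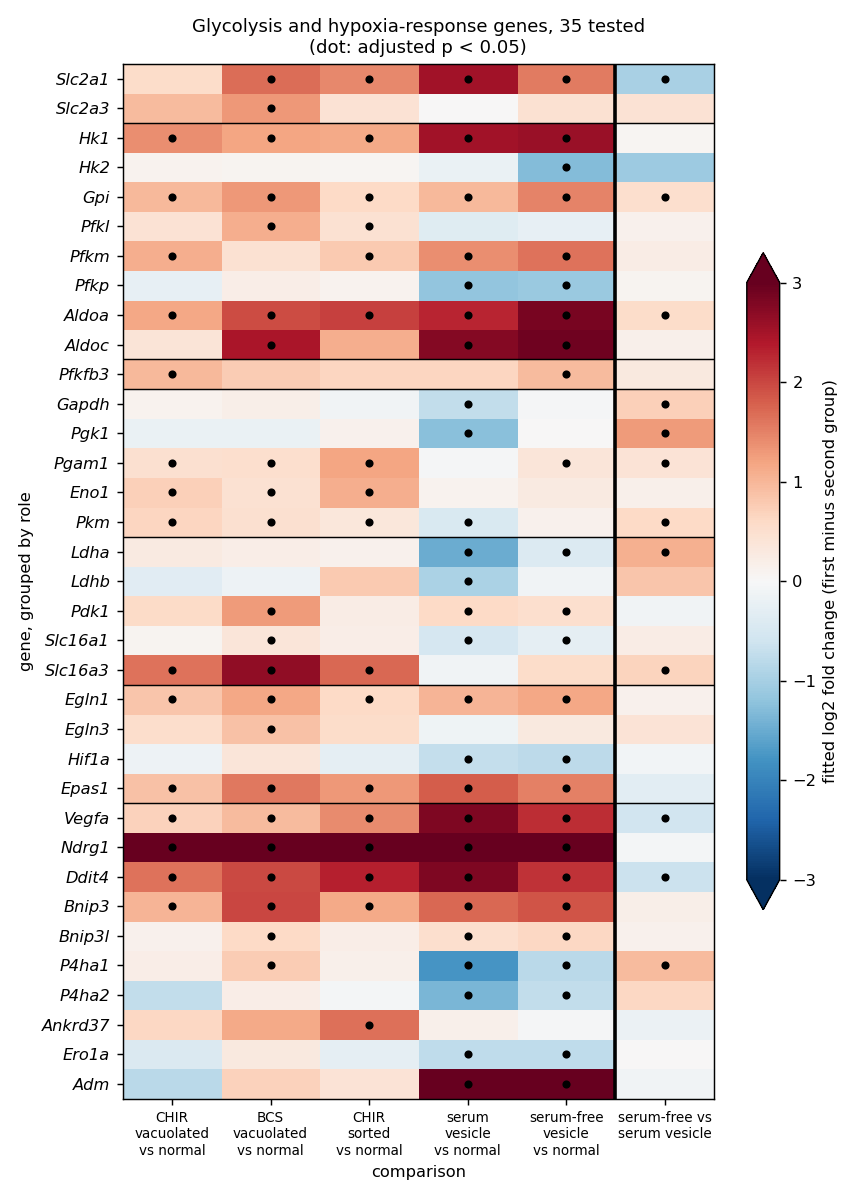
Fitted log2 fold changes of the 35 tested genes (rows, ordered by role) in each state against normal cells and, right of the thick line, in serum-free against serum vesicles, with dots at adjusted p under 0.05. Colours saturate at 3, which Ndrg1 passed in all 5 states. The 3 vacuolated columns hold dots only on red, while the vesicle columns hold both colours.

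Glucose enters these cells through facilitated transporters, of which Slc2a1 is the widespread form. Slc2a1 stood at 16.9, 17.1 and 17.6 CPM in the 3 normal libraries, 25.7, 22.6 and 27.7 in CHIR-vacuolated, 54.3, 76.6 and 33.9 in BCS-vacuolated and 46.6, 55.4 and 39 in sorted vacuolated cells. It reached 103, 59.3 and 137 CPM in serum vesicles and 59.1, 47.6 and 45.8 in serum-free vesicles. Every library of the other 5 groups lay above all normal ones, and the serum vesicles spread widest. The log2 difference from normal was 1.68 ± 0.29 (SE) in BCS-vacuolated cells (adjusted p = 0.000636), 1.45 ± 0.29 in sorted cells (adjusted p = 0.00141), 2.53 ± 0.29 in serum vesicles (adjusted p = 8.57e-07, 5.76-fold) and 1.56 ± 0.29 in serum-free vesicles (adjusted p = 0.000189). In CHIR-vacuolated cells it was 0.56 ± 0.30 and missed the threshold (adjusted p = 0.303), although with only these 2 groups in the fit the adjusted p was 0.00601.

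Slc2a3, a transporter of high affinity, was counted far less often, at 2.87, 4.61 and 2.88 CPM in normal cells. It stood at 5.47, 6.55 and 7.79 in CHIR-vacuolated, 11.5, 7.71 and 6.22 in BCS-vacuolated, 5.07, 2.57 and 6.08 in sorted, 4.26, 2.37 and 3.92 in serum-vesicle and 5.65, 3.89 and 4.66 in serum-free-vesicle libraries. Only BCS-vacuolated cells passed the test among the 5 states, with 1.29 ± 0.34 (adjusted p = 0.00818, 0.0701 without BCS replicate 1). The ratio of Slc2a1 to Slc2a3 counts was 3.71 to 6.11 in normal libraries, 24.1 to 34.9 with serum vesicles and 9.82 to 12.2 with serum-free ones. Transcript lengths are not in the files, so such a ratio is read only between groups and not as a ratio of molecules.

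Hexokinases trap glucose as its phosphate. Hk1, the form used in most tissues, stood at 2.69, 3.65 and 3.18 CPM in normal cells (55 counts in all), 7.29, 6.55 and 11.1 in CHIR-vacuolated, 8.14, 7.38 and 6.22 in BCS-vacuolated and 5.53, 7.71 and 7.57 in sorted cells. It reached 14.9, 16.3 and 23.7 CPM in serum vesicles and 23, 18.7 and 15.7 in serum-free vesicles, so no library of these 5 states overlapped the normal ones. Hk1 rose by 1.40 ± 0.28, 1.18 ± 0.28 and 1.13 ± 0.28 on the log2 scale in the vacuolated groups (adjusted p = 0.00206, 0.00423 and 0.00390) and by 2.51 ± 0.27 and 2.58 ± 0.27 in the vesicles (2.02e-08 and 1.31e-08).

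Hk2, the isozyme of insulin-responsive and proliferating cells and a hypoxia target, did not follow. Its levels were 21.9, 12.1 and 21.6 CPM in normal, 16.7, 20.4 and 23.2 in CHIR-vacuolated, 27.6, 18.6 and 13.6 in BCS-vacuolated and 17.5, 22.5 and 18.8 in sorted cells. They were 16.3, 5.84 and 28.1 CPM in serum vesicles and 12.1, 7.53 and 3.84 in serum-free vesicles, a spread within each vesicle group that exceeded that of Hk1. It fell only in serum-free vesicles (-1.31 ± 0.48, adjusted p = 0.0315), a call lost without normal replicate 1 or 3 (0.0871 and 0.0904) or serum-free replicate 2 or 3 (0.0785 and 0.126) and with passage as a covariate (0.0727). The ratio of Hk1 to Hk2 counts was 0.123 to 0.302 in normal libraries, 0.294 to 0.476 in the vacuolated ones, 0.844 to 2.79 in the serum and 1.91 to 4.09 in the serum-free vesicles.

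Gpi, which isomerises glucose phosphate, moved up in every state. It stood at 135, 115 and 123 CPM in normal, 247, 232 and 259 in CHIR-vacuolated, 324, 269 and 326 in BCS-vacuolated and 186, 192 and 187 in sorted cells, then at 264, 251 and 215 in serum vesicles and 337, 378 and 327 in serum-free vesicles. All 15 libraries of the other states lay above the normal ones. Its log2 difference ran from 0.60 ± 0.12 in sorted cells (adjusted p = 0.000543) to 1.48 ± 0.12 in serum-free vesicles (adjusted p = 1.20e-10), and the sorted call was lost with library totals (0.0823).

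Phosphofructokinase commits sugar to glycolysis, and its 3 subunit genes went separate ways. Pfkm, the muscle form, rose in serum vesicles (1.40 ± 0.27, from 4.54 to 6.52 CPM in normal libraries to 14.2 to 14.3) and in serum-free vesicles (1.63 ± 0.26). It also passed in CHIR-vacuolated (1.10 ± 0.27, adjusted p = 0.00897) and sorted cells (0.78 ± 0.26, adjusted p = 0.0317), where leaving out normal replicate 3 ended both calls (0.0633 and 0.134). CHIR-vacuolated replicate 1 (0.0682), normal replicate 1 (0.0891) and sorted replicates 1 and 2 (0.160 and 0.0545) each did so for one of them. Pfkl, the liver form, rose in BCS-vacuolated cells from 65.3 to 83.1 CPM to 142 to 188 (1.10 ± 0.17, adjusted p = 4.92e-05) and by 0.46 ± 0.16 in sorted cells (adjusted p = 0.0424, 0.0863 to 0.184 without normal replicate 1 or 3 or sorted replicate 2 or 3, and 0.0562 with the replicate number as a block). In serum vesicles Pfkl was -0.37 ± 0.17 (adjusted p = 0.0638).

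Pfkp, the platelet form, went the other way in vesicles. It stood at 76.8, 91.3 and 74.6 CPM in normal, 66.5, 62.1 and 74.8 in CHIR-vacuolated, 89, 94.3 and 96.1 in BCS-vacuolated and 84.5, 81 and 95.3 in sorted cells. In serum vesicles it was at 37, 40.6 and 27.9 CPM and in serum-free vesicles at 44.2, 44.8 and 23.8, below every library of the other groups. The fall was -1.19 ± 0.18 (adjusted p = 3.98e-06) and -1.11 ± 0.18 (adjusted p = 9.75e-06). Pfkfb3, whose product makes the sugar bisphosphate that activates phosphofructokinase, rose in serum-free vesicles (0.96 ± 0.30, adjusted p = 0.00819). In CHIR-vacuolated cells its call (0.98 ± 0.30, adjusted p = 0.0442) was lost on leaving out any normal library or CHIR-vacuolated replicate 2 or 3, with 0.0535 to 0.247, with passage as a covariate (0.0511) and with the replicate number as a block (0.0624).

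Aldolase splits the sugar, and Aldoa, its muscle form, rose in every state. Aldoa stood at 73.2, 55.6 and 62.4 CPM in normal, 138, 137 and 148 in CHIR-vacuolated, 280, 235 and 225 in BCS-vacuolated and 225, 288 and 282 in sorted cells. It reached 359, 270 and 309 CPM in serum vesicles and 471, 507 and 405 in serum-free vesicles. Each state stood clear of the normal libraries, by 2.21-fold in CHIR-vacuolated cells (1.15 ± 0.14, adjusted p = 6.56e-06), 3.86-fold in BCS-vacuolated cells (1.95 ± 0.14, adjusted p = 1.39e-09) and 4.15-fold in sorted cells (2.05 ± 0.14, adjusted p = 2.18e-10). In serum vesicles it was 4.9-fold (2.29 ± 0.14, adjusted p = 2.12e-12) and in serum-free vesicles 7.23-fold (2.85 ± 0.15, adjusted p = 5.08e-14). None of the alternative settings run ended any of these 5 calls.

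Aldoc, the brain form and a hypoxia target, was counted rarely in normal cells, with 16 counts in 3 libraries (0.897, 1.15 and 0.757 CPM). It stood at 0.981, 0.345 and 2.19 CPM in CHIR-vacuolated, 5.26, 5.18 and 4.92 in BCS-vacuolated and 3, 2.35 and 0.868 in sorted cells, and at 8.37, 5.84 and 4.61 in serum and 9.98, 6.92 and 4.66 in serum-free vesicles. BCS-vacuolated cells and vesicles stood clear of normal cells (2.45 ± 0.51, 2.76 ± 0.50 and 2.91 ± 0.50, adjusted p = 0.00123, 4.49e-05 and 2.07e-05), while the other vacuolated groups overlapped them.

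Of the 5 tested enzymes of the lower steps, 3 rose and 0 fell in each vacuolated group. The rising share was 60%, against 4.49, 11.2 and 14.4% of all tested genes in CHIR-vacuolated, BCS-vacuolated and sorted cells. Of all tested genes 3.13, 9.51 and 11.5% fell in these groups. Gapdh, which oxidises the triose, stood at 907, 1020 and 983 CPM in normal, 1040, 1050 and 1030 in CHIR-vacuolated, 1140, 888 and 1250 in BCS-vacuolated and 943, 860 and 891 in sorted cells. It was at 707, 575 and 451 CPM in serum vesicles and 967, 971 and 898 in serum-free vesicles. Serum vesicles lay below all normal libraries (-0.75 ± 0.14, adjusted p = 5.81e-05), whereas serum-free vesicles overlapped them (-0.04 ± 0.14, adjusted p = 0.832). With library totals the serum-free value was -0.52 (0.00650).

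Pgk1, which makes the ATP of the next step, showed the same split. Its levels were 463, 483 and 435 CPM in normal, 398, 392 and 417 in CHIR-vacuolated, 425, 379 and 391 in BCS-vacuolated and 550, 461 and 493 in sorted cells. Serum vesicles held 235, 218 and 126 CPM and serum-free vesicles 441, 485 and 475. Pgk1 fell 2.38-fold in serum vesicles (-1.25 ± 0.15, adjusted p = 1.38e-07), with replicate 3 lowest, and was 0.02 ± 0.15 in serum-free vesicles (adjusted p = 0.916), a value that turned to -0.47 (0.0146) with library totals. None of the vacuolated groups passed the test for Gapdh or Pgk1.

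Pgam1, Eno1 and Pkm, the mutase, enolase and pyruvate kinase that follow, were each higher in all 3 vacuolated groups. Eno1 stood at 560, 556 and 566 CPM in normal, 923, 918 and 923 in CHIR-vacuolated, 736, 875 and 687 in BCS-vacuolated, 1280, 1150 and 1150 in sorted, 680, 569 and 557 in serum-vesicle and 635, 645 and 729 in serum-free-vesicle libraries. The sorted cells were highest (1.09 ± 0.12, adjusted p = 3.26e-07), followed by CHIR-vacuolated (0.72 ± 0.12, adjusted p = 0.000210) and BCS-vacuolated cells (0.45 ± 0.12, adjusted p = 0.00733). Neither vesicle group passed for Eno1 (adjusted p = 0.457 and 0.0610). Pgam1 rose by 0.48 ± 0.12, 0.51 ± 0.12 and 1.19 ± 0.12 in the vacuolated groups, the CHIR-vacuolated call being lost without normal replicate 2 (0.0603) or CHIR-vacuolated replicate 3 (0.0579). In serum-free vesicles Pgam1 rose by 0.37 ± 0.12 (adjusted p = 0.00994) on the TMM scale and was -0.11 with library totals.

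Pkm stood at 790, 880 and 792 CPM in normal, 1280, 1220 and 1370 in CHIR-vacuolated, 1220, 1040 and 1190 in BCS-vacuolated and 1060, 1070 and 1020 in sorted cells. In vesicles it was at 698, 603 and 481 CPM with serum and 917, 827 and 964 without. All vacuolated libraries lay above all normal ones, and all serum vesicles below them. The log2 differences were 0.65 ± 0.12 (adjusted p = 0.00136), 0.49 ± 0.12 (adjusted p = 0.00695) and 0.35 ± 0.12 (adjusted p = 0.0373) in the vacuolated groups and -0.46 ± 0.12 in serum vesicles (adjusted p = 0.00248). The sorted call was lost on leaving out any one of the 6 libraries compared (0.0520 to 0.118), and with library totals the calls of Pkm in all 3 vacuolated groups were lost (0.114, 0.189 and 0.754), as were those of Eno1 and Pgam1 in CHIR-vacuolated (0.0540 and 0.337) and BCS-vacuolated cells (0.210 and 0.110). Several of these enzymes, among them Gapdh, Ldha, Eno1, Pgam1, Pkm, Aldoa, Pgk1 and Tpi1, have processed copies in rodent genomes. How reads shared between a gene and its copies were counted is not given in the sources used here, so their levels are uncertain.

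**Figure D2:**
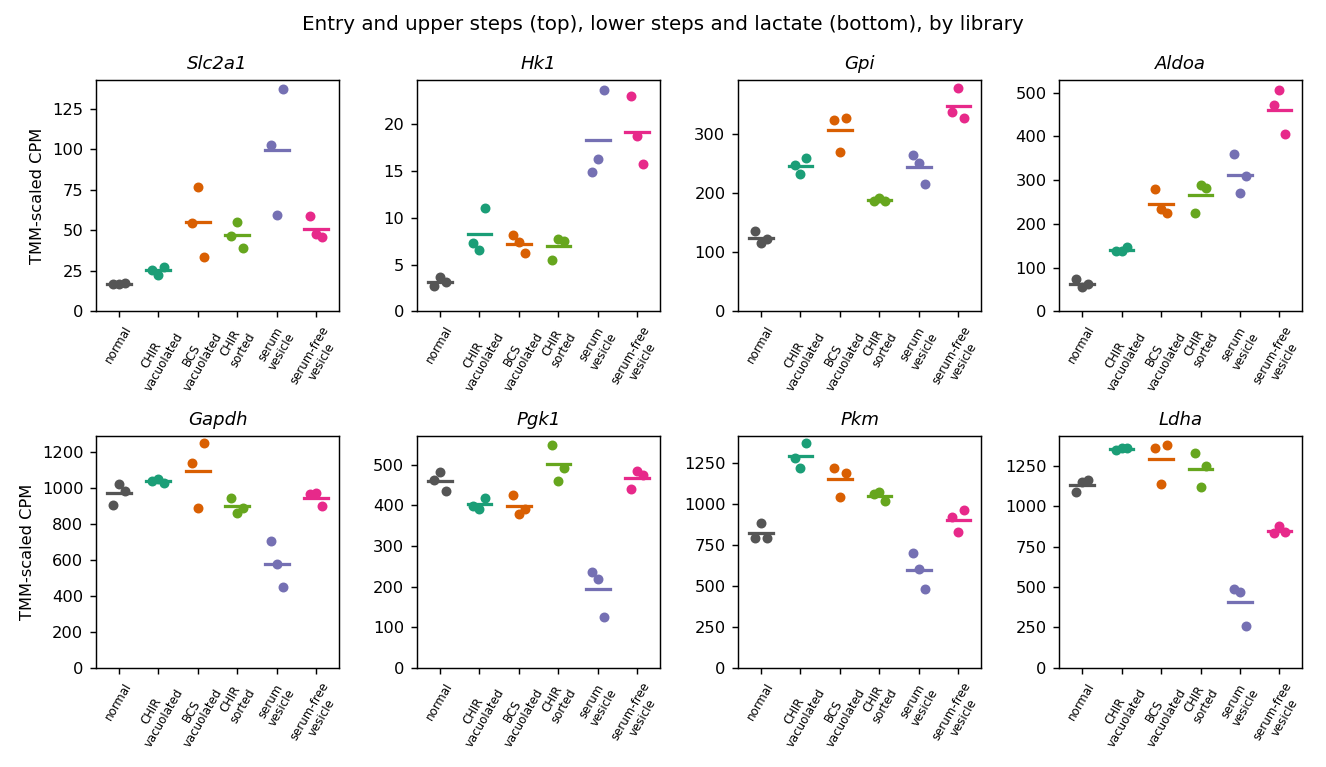
TMM-scaled CPM of 8 genes in each of the 18 libraries, by group (points are libraries, lines are group means, axes start at 0). The upper row (Slc2a1, Hk1, Gpi, Aldoa) lies above normal in every other state, while in the lower row (Gapdh, Pgk1, Pkm, Ldha) the serum vesicles lie below all normal libraries.

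Pyruvate is either reduced to lactate or sent to mitochondria. Ldha, the lactate dehydrogenase subunit that favours lactate, stood at 1090, 1150 and 1160 CPM in normal, 1350, 1360 and 1360 in CHIR-vacuolated, 1360, 1140 and 1380 in BCS-vacuolated and 1330, 1120 and 1250 in sorted cells. It was at 489, 466 and 260 CPM in serum vesicles and 832, 876 and 841 in serum-free vesicles. Serum vesicles, again lowest in replicate 3, lay far below every other library, 2.79-fold under normal (-1.48 ± 0.16, adjusted p = 1.81e-08). The fall in serum-free vesicles was -0.41 ± 0.16 (adjusted p = 0.0250) with no overlap, but the call was lost without normal replicate 2 or 3 or serum-free replicate 1 or 3 (0.0551 to 0.0641). No vacuolated group passed for Ldha (adjusted p from 0.353 to 0.609).

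Ldhb, the subunit that favours pyruvate, was counted much less. It stood at 10.9, 10.6 and 10.3 CPM in normal, 9.95, 7.93 and 6.97 in CHIR-vacuolated, 5.43, 15.7 and 6.73 in BCS-vacuolated, 20.5, 14.2 and 20.3 in sorted, 6.85, 6.54 and 2.54 in serum-vesicle and 9.98, 12 and 7.69 in serum-free-vesicle libraries. Its only call among the 5 states was the fall in serum vesicles (-0.94 ± 0.35, adjusted p = 0.0239), lost without serum-vesicle replicate 3 (0.106) or normal replicate 1 (0.0532).

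Pdk1, the kinase that shuts pyruvate dehydrogenase, stood at 30.9, 22.8 and 27.5 CPM in normal, 41.2, 44.3 and 36.2 in CHIR-vacuolated, 83.8, 44.9 and 68 in BCS-vacuolated and 33.5, 26.4 and 34.9 in sorted cells, then at 41.4, 46.8 and 35 in serum and 42.7, 45 and 27.7 in serum-free vesicles. BCS-vacuolated cells were highest, though spread, and rose by 1.27 ± 0.21 (adjusted p = 0.000129). The vesicle calls were weaker (0.60 ± 0.21, adjusted p = 0.0153, and 0.50 ± 0.21, adjusted p = 0.0421). The first was lost without normal replicate 2 (0.0881) or serum-vesicle replicate 2 (0.0706), and the other overlapped normal cells and was lost without normal replicate 2 or 3 or serum-free replicate 1 or 2 (0.0842 to 0.189) and with passage as a covariate (0.0777).

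The monocarboxylate transporters carry lactate across the membrane. Slc16a3, the exporter of highly glycolytic cells and a hypoxia target, stood at 28.7, 29 and 26 CPM in normal, 86.8, 76.6 and 97.2 in CHIR-vacuolated, 215, 177 and 136 in BCS-vacuolated and 96.1, 99.6 and 81.9 in sorted cells. In vesicles it was at 29.5, 33.8 and 12.7 CPM with serum and 41.6, 46.4 and 34.7 without. It rose in all vacuolated groups, by 1.64 ± 0.23 (adjusted p = 0.000127), 2.66 ± 0.23 (adjusted p = 2.19e-07, 6.3-fold) and 1.73 ± 0.23 (adjusted p = 2.28e-05). Serum vesicles overlapped normal cells (-0.11 ± 0.24, adjusted p = 0.727), and serum-free vesicles just missed the threshold (0.55 ± 0.23, adjusted p = 0.0504). Slc16a1, the widespread transporter, rose modestly in BCS-vacuolated cells (0.37 ± 0.11, adjusted p = 0.0176, 0.0675 and 0.0998 without normal replicate 1 or 3) and fell in serum vesicles (-0.50 ± 0.11, adjusted p = 0.000379). In serum-free vesicles its fall was -0.28 ± 0.11 (adjusted p = 0.0338), lost without normal replicate 1 or 2 or any serum-free library (0.0504 to 0.185) and with no low-count filter (0.121).

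The genes of the 2 oxygen-regulated α subunits moved apart. Hif1a stood at 271, 319 and 286 CPM in normal, 280, 255 and 253 in CHIR-vacuolated, 387, 298 and 436 in BCS-vacuolated and 272, 232 and 229 in sorted cells, and at 167, 208 and 158 in serum and 139, 180 and 185 in serum-free vesicles. The vesicles lay below every normal library (-0.71 ± 0.14, adjusted p = 0.000133, and -0.79 ± 0.14, adjusted p = 4.10e-05), and no vacuolated group passed. The oxygen response acts mainly on the stability of these proteins, which RNA does not measure.

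Epas1, the α subunit gene prominent in endothelium, rose in every state. It stood at 128, 121 and 119 CPM in normal, 231, 220 and 231 in CHIR-vacuolated, 408, 412 and 281 in BCS-vacuolated, 251, 396 and 260 in sorted, 402, 330 and 562 in serum-vesicle and 342, 358 and 338 in serum-free-vesicle libraries. The log2 differences were 0.89 ± 0.18 (adjusted p = 0.00286), 1.58 ± 0.18 (adjusted p = 2.63e-06), 1.30 ± 0.18 (adjusted p = 2.14e-05), 1.81 ± 0.18 (adjusted p = 2.22e-08) and 1.50 ± 0.18 (adjusted p = 4.06e-07), the CHIR-vacuolated call being lost with library totals (0.0933). The ratio of Hif1a to Epas1 counts was 2.12 to 2.65 in normal libraries and 1.10 to 1.21 in CHIR-vacuolated ones. It was 0.725 to 1.55 in BCS-vacuolated, 0.585 to 1.09 in sorted, 0.281 to 0.632 in serum-vesicle and 0.408 to 0.548 in serum-free-vesicle libraries, so every normal library stood above all 15 others.

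**Figure D3:**
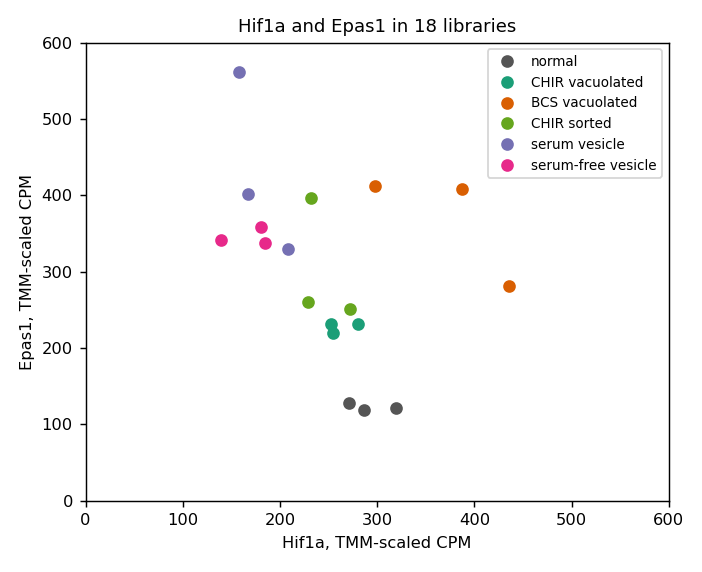
TMM-scaled CPM of Hif1a (x axis) and Epas1 (y axis) in the 18 libraries, coloured by group. Normal libraries sit at the bottom, at 119 to 128 CPM of Epas1, and the vesicles at upper left, with Hif1a at 139 to 208 CPM and Epas1 at 330 to 562.

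The hydroxylase Egln1, the main oxygen sensor of the pathway and itself a target, rose in all 5 states, by 0.83 ± 0.18, 1.17 ± 0.18 and 0.60 ± 0.18 in the vacuolated groups and 1.03 ± 0.18 and 1.16 ± 0.18 in vesicles. The sorted call (adjusted p = 0.0146) was lost without normal replicate 2 (0.112). Egln3, a strongly inducible relative, stood at 49.4, 48.2 and 54.8 CPM in normal, 73.5, 75.7 and 71.1 in CHIR-vacuolated, 107, 86.4 and 89.3 in BCS-vacuolated and 78.9, 65.8 and 79.3 in sorted cells, so all vacuolated libraries lay above the normal ones. In vesicles it was at 47.8, 47.6 and 43.3 CPM with serum and 36.2, 106 and 42.5 without. Serum-free replicate 2 stood far above its 2 companions. Only BCS-vacuolated cells passed (0.89 ± 0.27, adjusted p = 0.0279), and that call was lost without any normal library or BCS replicate 1 or 3 (0.0574 to 0.0947). In serum-free vesicles Egln3 was 0.29 ± 0.27 (adjusted p = 0.377) and, without replicate 2, -0.36 (0.0378).

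Among the other hypoxia-response genes, Ndrg1 changed most. Ndrg1, a stress and differentiation gene induced by low oxygen, had 20 counts in the 3 normal libraries (0.897, 1.34 and 1.21 CPM). It stood at 9.67, 7.76 and 10.5 CPM in CHIR-vacuolated, 15.9, 20.5 and 9.58 in BCS-vacuolated and 19.1, 19.3 and 14.9 in sorted cells, and at 54.8, 49 and 53.7 in serum and 45.2, 62.2 and 44 in serum-free vesicles. The lowest vesicle library lay above the highest vacuolated one, and the lowest vacuolated one above all normal ones. The rise was 8.04-fold (3.01 ± 0.34, adjusted p = 1.85e-06), 13.2-fold (3.72 ± 0.32) and 15.2-fold (3.93 ± 0.31) in the vacuolated groups and 45-fold (5.49 ± 0.30, adjusted p = 1.65e-13) and 43.3-fold (5.44 ± 0.30) in vesicles. With so few normal counts the size of these folds is imprecise.

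Ddit4, an inhibitor of mTOR signalling, stood at 4.49, 5.76 and 5.75 CPM in normal, 20.2, 14 and 15.3 in CHIR-vacuolated, 21.2, 25 and 17.1 in BCS-vacuolated and 33.2, 26 and 21.8 in sorted cells. Serum vesicles held 44.6, 38 and 29.5 CPM and serum-free vesicles 22, 21.9 and 27.6. Each state rose clear of normal cells, from 1.63 ± 0.23 in CHIR-vacuolated cells (adjusted p = 5.38e-05) to 2.81 ± 0.23 in serum vesicles (adjusted p = 1.69e-10).

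Vegfa, the angiogenic growth factor, stood at 16.5, 14.2 and 11.5 CPM in normal, 23.1, 25.9 and 19.7 in CHIR-vacuolated, 27.6, 29.5 and 24.1 in BCS-vacuolated and 48.2, 34.4 and 29.3 in sorted cells. It reached 79.3, 91 and 121 CPM in serum vesicles and 69.1, 70.2 and 56 in serum-free vesicles, which were the highest of all groups. The rise was 6.9-fold (2.79 ± 0.20, adjusted p = 2.41e-11) and 4.64-fold (2.21 ± 0.20, adjusted p = 1.08e-09). The call in CHIR-vacuolated cells (0.70 ± 0.20, adjusted p = 0.0315) was lost without normal replicate 2 or 3 or CHIR-vacuolated replicate 1 or 2 (0.0941 to 0.168). Adm, the vasodilator adrenomedullin, was nearly silent outside vesicles. It had 9 counts in normal cells, all in replicate 2 (1.73 CPM), stood at 0.28, 0 and 0.547, 0.339, 1.1 and 1.04 and 0.922, 0.894 and 0.394 CPM in the CHIR-vacuolated, BCS-vacuolated and sorted groups, and reached 5.63, 8.63 and 5.76 CPM in serum and 7.72, 5.95 and 5.12 in serum-free vesicles. It was called higher in both (3.62 ± 0.69, adjusted p = 8.97e-05, and 3.51 ± 0.69, adjusted p = 0.000139). Adm passed the count filter only through the vesicle libraries, where it was high, so these calls are a description and not support. With no count in 2 normal libraries, the fitted size is no bound.

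Bnip3, a receptor that marks mitochondria for removal, stood at 8.25, 7.29 and 8.02 CPM in normal, 15.7, 15.4 and 16.7 in CHIR-vacuolated, 31.7, 37.8 and 25.9 in BCS-vacuolated and 21.5, 19 and 11.4 in sorted cells, then at 21.1, 32.7 and 23.7 in serum and 34.5, 33.8 and 20.1 in serum-free vesicles. It rose in all 5 states without overlap, most in BCS-vacuolated cells (2.01 ± 0.25, adjusted p = 3.25e-06) and least in CHIR-vacuolated cells (1.02 ± 0.26, adjusted p = 0.0129, 0.0641 without normal replicate 2). Its relative Bnip3l rose less, by 0.60 ± 0.15 in BCS-vacuolated cells, 0.50 ± 0.15 in serum vesicles (0.103 without serum-vesicle replicate 2) and 0.63 ± 0.15 in serum-free vesicles, and all 3 calls were lost with library totals (0.0619 to 0.403).

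P4ha1 and P4ha2, which encode collagen prolyl hydroxylases, classical hypoxia targets that let collagen chains form stable helices, fell in vesicles. P4ha1 stood at 237, 263 and 246 CPM in normal, 305, 269 and 283 in CHIR-vacuolated, 492, 304 and 460 in BCS-vacuolated and 300, 274 and 254 in sorted cells. It was at 74.1, 93.8 and 50.3 CPM in serum vesicles and 114, 139 and 175 in serum-free vesicles, all below normal. It fell 3.39-fold with serum (-1.76 ± 0.20, adjusted p = 1.14e-07) and 1.74-fold without (-0.80 ± 0.19, adjusted p = 0.00109), and rose in BCS-vacuolated cells (0.75 ± 0.19, adjusted p = 0.00684).

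P4ha2 stood at 107, 111 and 98.4 CPM in normal, 61, 62.1 and 66.6 in CHIR-vacuolated, 115, 150 and 98.8 in BCS-vacuolated, 105, 98.6 and 99.3 in sorted, 33.8, 64.4 and 21.7 in serum-vesicle and 79.1, 70.1 and 40.8 in serum-free-vesicle libraries. It fell in serum vesicles (-1.38 ± 0.30, adjusted p = 0.000873). In serum-free vesicles the fall of -0.74 ± 0.29 (adjusted p = 0.0376) was lost without any normal library or serum-free replicate 2 or 3 (0.0546 to 0.143). In CHIR-vacuolated cells P4ha2 was -0.74 ± 0.29 with no overlap but did not pass (adjusted p = 0.146), and with only these 2 groups in the fit it did (3.84e-06). Ero1a, an oxidase that helps proteins fold in the endoplasmic reticulum, also fell in both vesicles (-0.77 ± 0.16 and -0.76 ± 0.16). Ankrd37, a small hypoxia-induced gene, passed only in sorted cells (1.65 ± 0.49, adjusted p = 0.0157), on 21 normal counts, with overlap, and not without normal replicate 1 or 2 or sorted replicate 3 (0.0571 to 0.106).

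**Figure D4:**
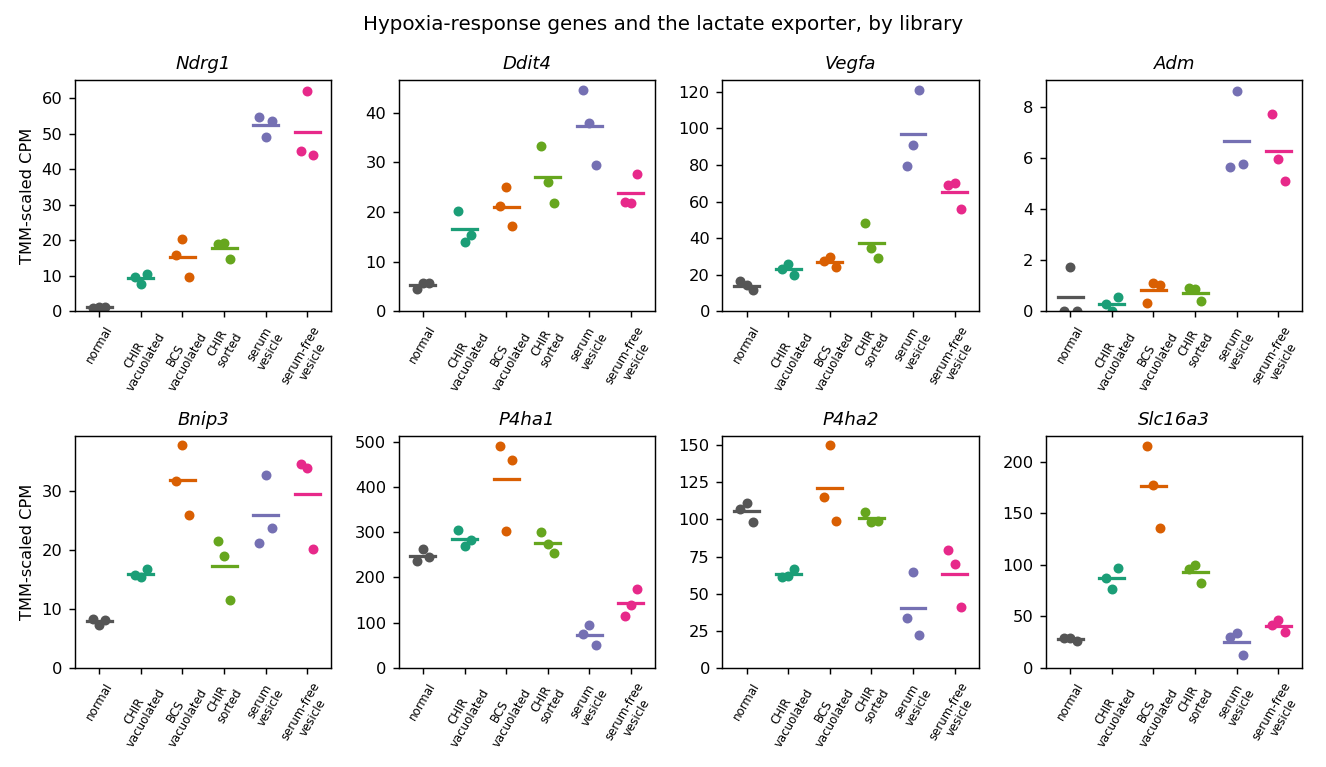
TMM-scaled CPM of 8 hypoxia-response genes by library and group (points are libraries, lines are group means, axes start at 0). Ndrg1, Ddit4, Vegfa and Bnip3 are above normal in every other state, Adm in vesicles, P4ha1 is below normal in both vesicle groups, and Slc16a3 peaks in BCS-vacuolated cells.

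Serum-free and serum vesicles were compared directly, in the same fit of all 18 libraries. Without serum, 4 of the 5 tested lower enzymes and 2 of the 5 lactate and pyruvate genes (Ldha and Slc16a3) were higher, and the transporter Slc2a1 was among the genes that were lower. Of the 35 genes, 9 were higher (12.9% of all tested genes were) and 3 lower (11.5%), with a median of 0.16 against 0.02 over all genes. Among the genes that were higher, Pgk1 differed most (1.27 ± 0.15, adjusted p = 3.75e-06), followed by Ldha (1.07 ± 0.16, adjusted p = 3.82e-05), P4ha1 (0.96 ± 0.19, adjusted p = 0.00118) and Gapdh (0.71 ± 0.14, adjusted p = 0.000714). In each of these 4 genes all serum-free libraries lay above all serum ones, and the calls survived all alternatives run. Pkm, Aldoa, Gpi, Pgam1 and Slc16a3 were higher by 0.40 to 0.66. With only these 2 groups in the fit the calls of Pgam1 (0.122) and Slc16a3 (0.178) were lost. Pgam1 was also lost without serum-vesicle replicate 3 (0.105) and Slc16a3 without serum-vesicle replicate 1 or 3 or serum-free replicate 1 or 2 (0.0532 to 0.164).

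Lower without serum were Slc2a1 (-0.97 ± 0.27, adjusted p = 0.0145), Ddit4 (-0.65 ± 0.19, adjusted p = 0.0159) and Vegfa (-0.57 ± 0.18, adjusted p = 0.0195). Each call depended on single libraries. That of Slc2a1 was lost without serum-vesicle replicate 3 (0.0884) or serum-free replicate 2 or 3 (0.0553 and 0.0677). That of Ddit4 was lost without serum-vesicle replicate 1 (0.0970) or serum-free replicate 2 (0.0670), and that of Vegfa without serum-vesicle replicate 3 (0.152) or serum-free replicate 3 (0.0965). Hk1, Ndrg1, Bnip3, Adm, Hif1a and Epas1 did not pass. Their log2 differences were 0.07, -0.05, 0.17, -0.11, -0.08 and -0.32, with standard errors of 0.14 to 0.50. With library totals, which moved the median of all genes by -0.22, 4 were higher and 3 lower, and the calls of Aldoa, Gpi, Pgam1, Pkm and Slc16a3 were lost. The higher share of all calls went from 52.8 to 20.4%. Serum-vesicle replicate 3 held the lowest value of its group in 23 of the 35 genes, and serum-free replicate 3 in 20. This count was not made over all tested genes, so it sets neither a library nor the listed genes apart. The number of listed genes called was 8 to 14 when 1 library was left out. Over all tested genes it was 1725 to 3004, against 2806 with every library.

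**Figure D5:**
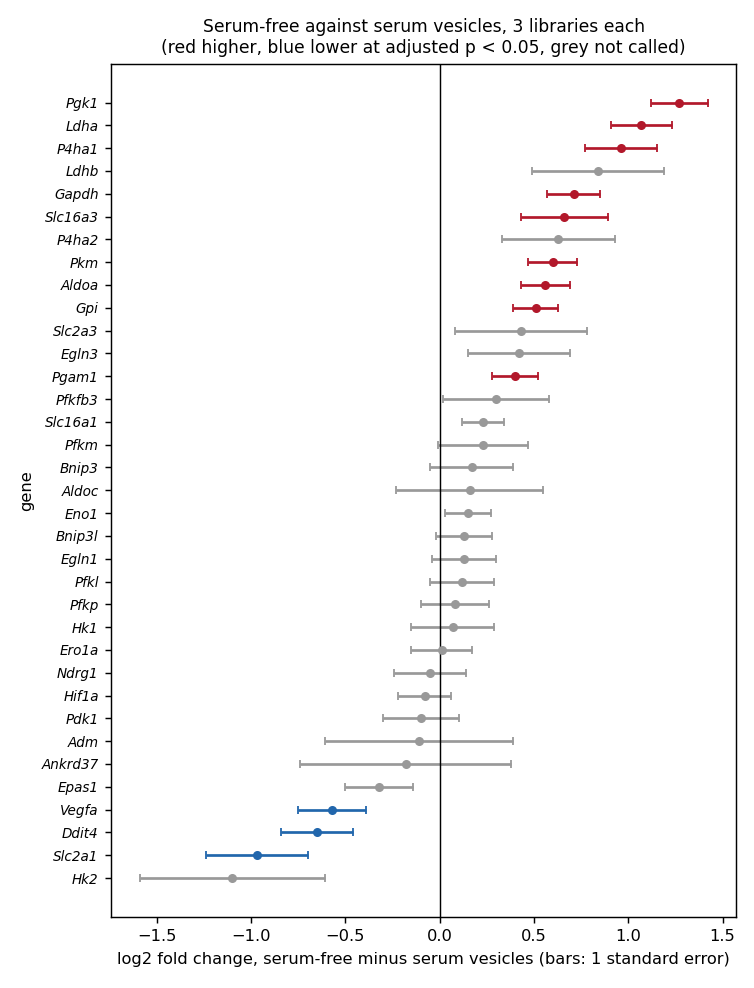
Log2 fold change of serum-free against serum vesicles for the 35 tested genes, with bars of 1 standard error (n = 3 libraries a group). The 9 genes in red lie from 0.40 to 1.27 and the 3 in blue from -0.97 to -0.57.

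The 3 ways of making vacuolated cells were also set against each other. Sorted cells against unsorted CHIR-vacuolated cells gave 8 genes higher (6.69% of all tested genes) and 1 lower (5.05%). Aldoa (0.91 ± 0.14, adjusted p = 7.71e-05) and Pgam1 (0.71 ± 0.12, adjusted p = 0.000253) were higher under every alternative run, and Ndrg1 (0.92 ± 0.22, adjusted p = 0.00670) under all but one, without CHIR-vacuolated replicate 2 (0.0509). The remaining 6 calls, among them Vegfa, Ddit4, Ldhb and the one fall (Gpi, -0.39 ± 0.12), were each lost without at least 3 of the 6 libraries in turn. The count was 5 without CHIR-vacuolated replicate 1 and 3 without CHIR-vacuolated replicate 2, CHIR-vacuolated replicate 3 or sorted replicate 1. Over all tested genes it was 690 to 954 with 1 library left out, against 1350 with every library. What the sort selected is not stated in the labels.

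BCS-vacuolated against CHIR-vacuolated cells gave 13 genes higher (7.40% of all) and 0 lower (5.83%), with a median of 0.36 against -0.01. Aldoc (2.06 ± 0.47, adjusted p = 0.00439), Aldoa (0.80 ± 0.14, adjusted p = 0.000290), Slc16a3 (1.02 ± 0.22, adjusted p = 0.00392), Bnip3 (1.00 ± 0.23, adjusted p = 0.00451) and Ero1a (0.74 ± 0.16, adjusted p = 0.00217) were higher under every alternative run. Slc2a1 was higher by 1.12 ± 0.28 (adjusted p = 0.0125), which was lost without CHIR-vacuolated replicate 2 or BCS replicate 1 or 2 (0.0523 to 0.0625). With library totals 14 genes were higher and 0 lower, and the higher share of all calls went from 55.9 to 76.6%. The count fell to 8 without CHIR-vacuolated replicate 1, 6 without CHIR-vacuolated replicate 2 and 5 without BCS replicate 1. Without BCS replicate 2 it was 12 higher and 2 lower. Over all tested genes the calls were 748 to 1947 with 1 library left out, against 1522 with every library.

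Serum vesicles against CHIR-vacuolated cells gave 11 genes higher (30.3% of all) and 14 lower (27.6%), with a median of -0.33 against 0.05. The 5 tested lower enzymes (Gapdh, Pgk1, Pgam1, Eno1 and Pkm) were all lower, by -0.51 to -1.11, as were Ldha (-1.74 ± 0.16), Slc16a3 (-1.75 ± 0.23) and P4ha1 (-1.96 ± 0.20). Ndrg1, Aldoc, Vegfa and Slc2a1 were higher, by 2.48, 2.37, 2.08 and 1.96. Adm, which passed the count filter only through the vesicle libraries, differed by 4.44.

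Further genes of the pathways were taken from lists written for this work with earlier results of these data known. Of 24 tested hypoxia-response genes outside the main list, 8 rose and 0 fell in CHIR-vacuolated, 12 rose and 1 fell in BCS-vacuolated, and 10 rose and 2 fell in sorted cells. In serum vesicles 12 rose and 4 fell, and in serum-free vesicles 11 rose and 5 fell. The rising shares were 33.3, 50, 41.7, 50 and 45.8% in these 5 states, against 4.49, 11.2, 14.4, 31.7 and 30.2% of all tested genes. The falling shares were 0, 4.17, 8.33, 16.7 and 20.8%, against 3.13, 9.51, 11.5, 28.8 and 27.5% of all. Bhlhe40, a transcriptional repressor, rose from 10.0 CPM on average in normal cells to 36.9, 66.8, 53.0, 60.5 and 53.2 CPM in the 5 states in the order above. Plod1, a collagen lysyl hydroxylase, went from 68.0 CPM to 231, 296 and 237 CPM in the CHIR-vacuolated, BCS-vacuolated and sorted groups and, unlike P4ha1 and P4ha2, also rose in serum (205 CPM, adjusted p = 1.71e-07) and serum-free vesicles (248 CPM, adjusted p = 2.00e-08). Higd1a, a mitochondrial hypoxia protein, fell in serum vesicles (-1.82, adjusted p = 1.26e-08) and serum-free vesicles (-2.08, adjusted p = 1.34e-09).

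The partners and destruction machinery of the factors had 11 tested genes, of which 0 passed in CHIR-vacuolated cells. In BCS-vacuolated cells 1 rose (9.09%, against 11.2% of all genes) and 1 fell (9.09% against 9.51%). In sorted cells 2 rose (18.2% against 14.4%) and 2 fell (18.2% against 11.5%). Serum vesicles had 4 higher (36.4%, against 31.7% of all genes) and 5 lower (45.5% against 28.8%), and serum-free vesicles 4 (36.4% against 30.2%) and 4 (36.4% against 27.5%), so the rising shares were near those of all genes. Arnt, the common β subunit, averaged 12.8 CPM in normal cells and 39.7 and 47.5 CPM in serum and serum-free vesicles (log2 1.62 and 1.88, adjusted p = 5.58e-08 and 4.92e-09). Vhl, which recognises the hydroxylated α subunit, rose by 1.14 and 1.10, whereas Cul2, the scaffold of the same ligase, fell by 1.32 and 0.95.

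Of 15 tested tricarboxylic acid cycle genes, 1 rose and 0 fell in CHIR-vacuolated cells, 1 rose and 4 fell in BCS-vacuolated and in sorted cells, 1 rose and 8 fell in serum vesicles, and 3 rose and 5 fell in serum-free vesicles. The falling shares were 0, 26.7, 26.7, 53.3 and 33.3%, against 3.13, 9.51, 11.5, 28.8 and 27.5% of all tested genes, and the rising shares 6.67, 6.67, 6.67, 6.67 and 20%, against 4.49, 11.2, 14.4, 31.7 and 30.2%. Cs, citrate synthase, was the single riser of the first 4 states and also rose in the fifth, from 36.9 CPM in normal cells to 68.2, 71.6, 95.8, 91.5 and 125 CPM. Suclg1 and Fh, enzymes of later steps, fell in serum vesicles (-0.95 and -1.09), and Idh3g, a subunit of isocitrate dehydrogenase, in serum-free vesicles (-0.97). Without serum 6 of the 15 (40%, against 12.9% of all genes) were higher than with serum and 0 lower (11.5% of all), led by Sdhc (0.82, adjusted p = 5.90e-05).

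In the list of pyruvate entry and gluconeogenesis, with 13 tested genes, 0 rose and 1 fell in CHIR-vacuolated cells, 0 and 2 in BCS-vacuolated and 2 and 1 in sorted cells. The rising shares in these groups were 0, 0 and 15.4%, against 4.49, 11.2 and 14.4% of all tested genes. The falling shares were 7.69, 15.4 and 7.69%, against 3.13, 9.51 and 11.5%. In serum vesicles 5 rose (38.5%, against 31.7% of all genes) and 3 fell (23.1% against 28.8%), and in serum-free vesicles 6 rose (46.2% against 30.2%) and 3 fell (23.1% against 27.5%). All counts in the vacuolated groups were of 2 genes or fewer. G6pc3, a glucose phosphatase, averaged 1.64 CPM in normal cells and 15.6 and 17.1 CPM in the vesicles (adjusted p = 2.00e-08 and 1.05e-08), and Pdk2, a relative of Pdk1, 2.72 CPM and 14.4 and 10.5 CPM. Pc, which feeds pyruvate into the cycle, fell from 12.1 CPM in normal cells to 3.02 CPM in serum-free vesicles (adjusted p = 2.80e-07).

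Of the pentose phosphate genes, Tkt, transketolase, rose in CHIR-vacuolated (0.78, adjusted p = 0.00244) and BCS-vacuolated cells (1.17, adjusted p = 1.38e-05). Rpe, the ribulose-phosphate epimerase, fell in serum (-1.02, adjusted p = 3.28e-07) and serum-free vesicles (-0.82, adjusted p = 7.19e-06). Rpia, the ribose-5-phosphate isomerase, rose in serum-free vesicles (1.12, adjusted p = 0.000653). Of 6 tested other isozymes and transporters, 0 passed in CHIR-vacuolated cells, 2 fell in BCS-vacuolated and in sorted cells, 3 rose and 2 fell in serum vesicles, and 2 rose and 2 fell in serum-free vesicles. With 6 genes, each falling count of 2 is 33.3%, against 9.51, 11.5, 28.8 and 27.5% of all tested genes in those 4 states, and the rising counts are 50 and 33.3% in vesicles, against 31.7 and 30.2%. Tigar, a phosphatase that slows glycolysis, fell in all of these but CHIR-vacuolated cells, from 14.1 CPM in normal cells to 2.52 and 1.56 CPM in serum and serum-free vesicles.

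Sugar and nutrient regulators had 12 tested genes. In CHIR-vacuolated cells 1 rose and 0 fell, in BCS-vacuolated cells 2 and 1, in sorted cells 3 and 2, in serum vesicles 6 and 3 and in serum-free vesicles 4 and 5. The rising shares were 8.33, 16.7, 25, 50 and 33.3%, against 4.49, 11.2, 14.4, 31.7 and 30.2% of all tested genes, and the falling shares 0, 8.33, 16.7, 25 and 41.7%, against 3.13, 9.51, 11.5, 28.8 and 27.5%. Txnip, an inhibitor of glucose uptake that is itself induced by sugar phosphates, stood at 9.33, 5.56 and 7.11 CPM in normal cells, 123, 86.6 and 112 CPM in serum vesicles and 307, 384 and 348 CPM in serum-free vesicles. The 3 groups did not overlap (3.86 and 5.56 against normal, adjusted p = 2.93e-06 and 1.03e-07, and 1.70 without against with serum, 0.00342). Arrdc4, its paralog, went from 2.37 CPM on average to 50.5 CPM in serum-free vesicles (4.38, adjusted p = 3.69e-06). Mycn and Myc encode drivers of growth and glycolytic genes. Mycn fell from 81.4 CPM to 17.8 and 31.9 CPM in serum and serum-free vesicles, and Myc from 13.9 to 2.99 CPM in serum vesicles.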

How the data were processed

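RNA depleted of ribosomal RNA was sequenced from 18 libraries made with a directional kit, per the labels' protocols. The authors' deposited files hold raw gene counts in 3 columns (unstranded and 1 for each strand). Per the submitters' processing notes, bcl2fastq, Trimmomatic 0.38, STAR 2.6.1 and build rn6 were used. The strand holding nearly all counts was used here, and the other held 1.70 to 2.85%.

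The analysis ran in R 4.3.3 with edgeR 4.0.16 on these counts. Genes passed edgeR's filter by group (minimum count 10), libraries were scaled by TMM, and a model with 6 group means took in all 18 libraries, with robust quasi-likelihood dispersions (12 residual degrees of freedom). Each of 9 comparisons was adjusted by Benjamini-Hochberg over 11503 genes at a threshold of 0.05, and every adjusted p in the text is from edgeR's quasi-likelihood test. CPM are TMM-scaled. The code was tested on simulated data. Alternatives used DESeq2 1.42.0, other scalings, no filter, unstranded counts, only the 2 groups compared, passage as a covariate, a replicate block and each library left out.

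The genes and lists were chosen with earlier results of these data known. Library values are given for a fixed set of 23 genes and for any other listed gene among the 3 largest rises or falls of called genes without overlap in a comparison, which added Adm, Pfkp and Gpi. Of the other pathway lists, at most 3 genes with the smallest adjusted p per comparison are named. Some results on single genes and on a list that holds them are not reported here. Replicate numbers were checked for pairing, and same-numbered libraries did not deviate together (correlations -0.149 to 0.0951).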

Additional observations from a re-analysis of the deposited data

Results flagged for a closer look

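Listed genes were looked at for opposite changes from normal cells in a vacuolated group and a vesicle group, each past the threshold. The direct difference between the 2 groups also had to pass it. Both changes were measured against the same 3 normal libraries and the direct difference was part of the choice, so the values are only a description. Pkm was higher than normal in CHIR-vacuolated (0.65), BCS-vacuolated (0.49) and sorted cells (0.35) and lower in serum vesicles (-0.46). The log2 differences of serum vesicles from these groups were -1.11, -0.95 and -0.82.

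Slc16a1 was higher in BCS-vacuolated cells (0.37) and lower in serum (-0.50) and serum-free vesicles (-0.28), and its differences from BCS-vacuolated cells were -0.88 and -0.65. P4ha1 was higher in BCS-vacuolated cells (0.75) and lower in serum (-1.76) and serum-free vesicles (-0.80), with differences of -2.51 and -1.55.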

How the results depend on the processing

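Of 164 calls of listed genes over the 9 comparisons, 104 were kept under every alternative run and 60 were lost under at least 1. The number called in CHIR-vacuolated against normal cells (15) was 9 with library totals and 23 (21 higher and 2 lower) with only these 2 groups fitted. Over all tested genes the 876 calls became 1224 and 1856 in these settings. In serum-free against serum vesicles (12) the number was 7 with library totals, and the 2806 calls of all tested genes became 2255. In sorted against CHIR-vacuolated cells (9) the number was 5 with library totals and 15 with only the 2 groups fitted. There the 1350 calls of all tested genes became 675 and 2576. Leaving out 1 library each gave 11 to 14 calls in CHIR-vacuolated, 20 to 23 in BCS-vacuolated, 13 to 16 in sorted, 24 to 27 in serum-vesicle and 21 to 22 in serum-free-vesicle cells against normal. It gave 8 to 14 in serum-free against serum vesicles, 3 to 6 in sorted and 5 to 14 in BCS-vacuolated against CHIR-vacuolated cells, and 22 to 24 in serum vesicles against them. Over all tested genes, calls in the vacuolated groups against normal became 504 to 638 (from 876), 1275 to 2606 (from 2383) and 1982 to 2471 (from 2974). In serum and serum-free vesicles they became 6412 to 6916 (from 6950) and 6074 to 6387 (from 6633). In the remaining comparisons, in the order above, they became 1725 to 3004 (from 2806), 690 to 954 (from 1350), 748 to 1947 (from 1522) and 6004 to 6598 (from 6666). With 2 libraries in a group the test rests on fewer samples. In serum-free vesicles against normal, Pgam1 turned to -0.11 and Pgk1 to -0.47 with library totals, and Egln3 ranged from -0.36 without serum-free replicate 2 to 0.55 without replicate 1. Otherwise the cause of these changes was not tested. Passage as a covariate ended 8 calls and added 4, DESeq2 ended 0 and added 5, and unstranded counts ended 0 and added 1.

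With a replicate block the counts were 14, 22, 16, 26, 26, 12, 7, 13 and 25 in the order of the report's comparisons, against 15, 22, 17, 26, 25, 12, 9, 13 and 25, and 7 values crossed the threshold. Libraries correlated best with the same number in 6 of 6 cases only for BCS-vacuolated against normal cells. The labels give no shared animal or batch for a number, but some same-numbered libraries also share a passage. Among them are replicates 1 (passage 37) and 3 (passage 51) of normal and CHIR-vacuolated cells. Replicates 1 (passage 32) and 2 (passage 35) of the serum and serum-free vesicles do so too. Whether a shared passage stands for a shared culture is not stated. Depth limits the genes with few normal counts, Adm (9), Aldoc (16), Ndrg1 (20) and Ankrd37 (21).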

Other observations

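Dab2 and Hif3a, which are outside the listed set, stood out in single libraries or groups and were chosen after their values were seen. Dab2, an endocytic adaptor of extraembryonic endoderm, was at 218 CPM in serum-free replicate 2 against 97.9 and 65.5 in its companions, and in the same library Egln3 was at 106 CPM against 36.2 and 42.5. Hif3a, another α subunit gene, stood at 5.78, 1.39 and 11.5 CPM in serum vesicles and at no more than 0.85 CPM elsewhere.

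Reads on the strand opposite to the gene were 7.77% of all reads for Ankrd37, 4.69% for Hk2 and 3.82% for Pfkm. The other listed genes had at most 2.03% (Aldoc).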
